A study of Saccharomyces cerevisiae BY4741 with 6 samples.

Results

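The genes described here encode the heterotrimeric G protein and the MAP kinase cascade of the yeast pheromone response, from the G protein to the transcription factor Ste12 and the cell cycle inhibitor Far1. They were chosen by name, as *GPA1*, *STE4*, *STE18*, *SST2*, *STE5*, *STE11*, *STE7*, *FUS3*, *STE12* and *FAR1*, and all 10 were measured among the 5449 named genes of the series. The cells were BY4741, a haploid laboratory strain of mating type a with the alleles *ura3Δ0*, *leu2Δ0*, *his3Δ1* and *met15Δ0* (a disruption of *MET17*) in both conditions, grown in rich YPD medium at 30 °C. Cells that received neomycin sulfate at 10 mg/mL for 4 h were compared with untreated cells incubated for the same time, with 3 cultures per condition and a single Affymetrix Yeast Genome 2.0 array for each culture (n = 3 arrays per condition throughout). Neomycin is an aminoglycoside antibiotic, and the comparison asked how its presence alters transcript levels. Each value is the GCRMA signal of 1 probe set on the log2 scale, on which a difference of 1 is a doubling.

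A haploid yeast cell senses the pheromone of the opposite mating type with a receptor coupled to a G protein. The bound receptor makes Gpa1, the alpha subunit, release the dimer of Ste4 and Ste18, which brings the scaffold Ste5 and the kinases it holds to the plasma membrane. There Ste11 phosphorylates Ste7, and Ste7 phosphorylates Fus3, which activates Ste12 and Far1. Ste12 switches on the genes of mating, among them several members of its own pathway, while Far1 holds the cell in G1 and marks the site of polarised growth. Ste11 is shared with other MAP kinase routes of the cell. Many of these genes are expressed in haploid cells and repressed in diploids.

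In neomycin-treated cells, *FUS3*, *SST2*, *FAR1*, *STE4* and *STE12* had lower signals on every neomycin array than on any untreated array. Their signals were 0.641, 0.719, 0.731, 0.780 and 0.853 of the untreated ones (ratio of mean signals). *STE18* had the only other difference of more than 0.3 on the log2 scale, and it lay in the opposite direction with overlapping arrays. *GPA1*, *STE5*, *STE11* and *STE7* differed by 0.15 or less. Of the 10 genes, 0 passed the test over all genes, which was limma with Benjamini-Hochberg adjustment and a threshold of 0.05, and which called 0.514% of all genes. At an unadjusted p under 0.05 limma picked 4 of the 10 genes, *FUS3*, *SST2*, *FAR1* and *STE4*, all with lower values, where 8.33% of all genes were lower at that level. Neomycin arrays that lay entirely below the untreated arrays were found for 5 of the 10 genes and for 12.8% of all genes, and entirely above for 0 of 10 and for 5.58%. The fold change was below 0 for 8 of the 10 genes and for 62.1% of all genes, and its median was −0.19 over the 10 genes and −0.05 over all genes. RNA of whole cultures was measured, so that fewer cells expressing a gene and less RNA per cell cannot be told apart.

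**Figure D1:**
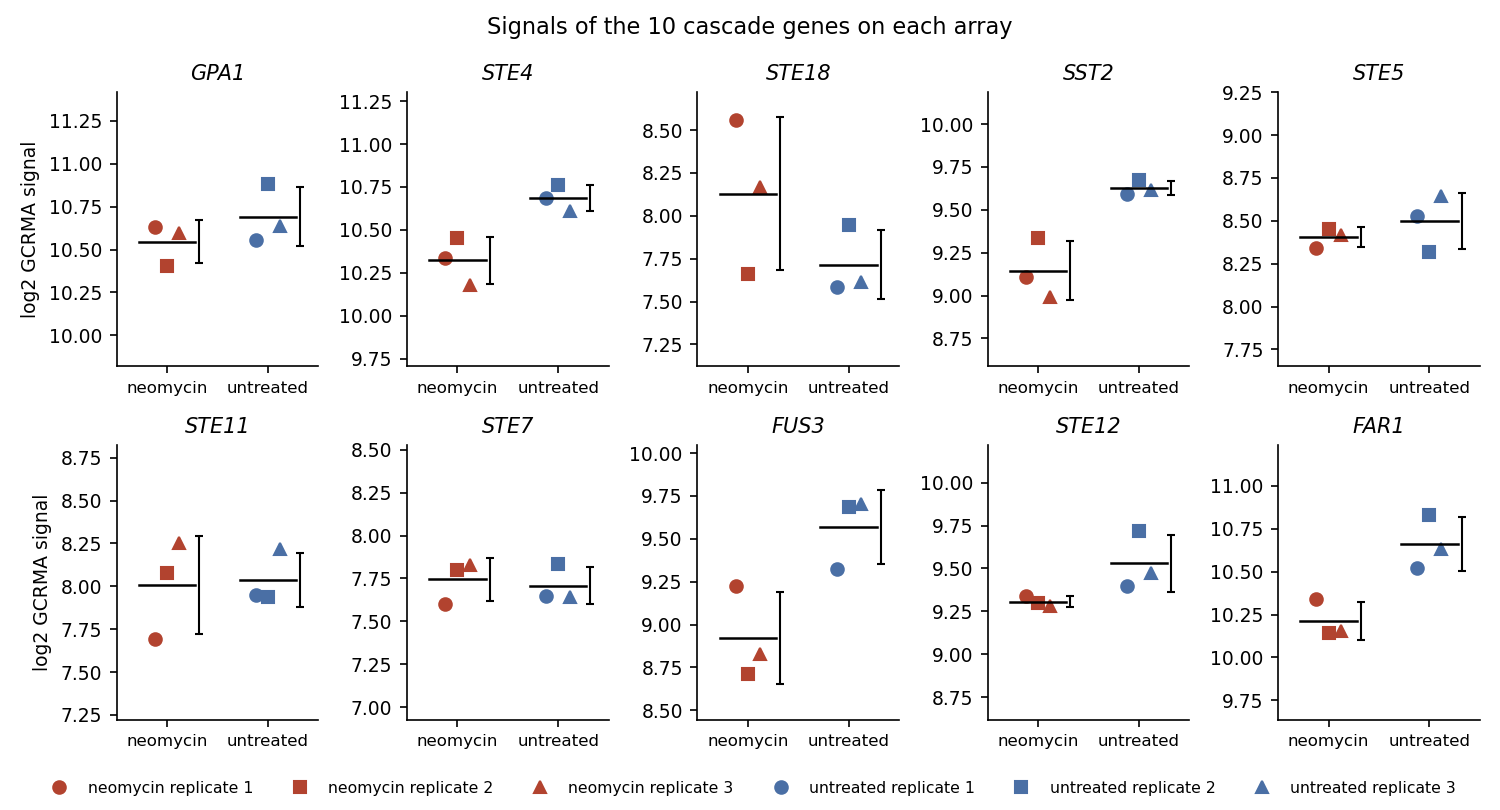
Log2 GCRMA signal (y axis, each panel spanning the same range of log2 units) of the 10 cascade genes on the 3 neomycin arrays (red) and the 3 untreated arrays (blue). Symbols mark the replicate number, horizontal lines the group means and error bars the SD, and the neomycin arrays lie below all untreated arrays for *STE4*, *SST2*, *FUS3*, *STE12* and *FAR1*.

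Among the subunits of the G protein, the gene of the beta subunit was lower on all neomycin arrays, that of the gamma subunit was higher on neomycin replicates 1 and 3, and that of the alpha subunit gave overlapping values. *STE4* (YOR212W), whose product carries the signal to the scaffold, read 10.34, 10.45 and 10.18 with neomycin (replicates 1, 2 and 3, the order used throughout), against 10.68, 10.76 and 10.61 in untreated cells. The 2 groups did not overlap, and the log2 fold change was −0.36 (SE 0.11, 95% interval −0.62 to −0.11, adjusted p = 0.246 from limma). *STE18* (YJR086W), the gamma subunit that anchors the dimer in the membrane by a lipid, had 8.56, 7.66 and 8.17 with neomycin, against 7.58, 7.95 and 7.61 in untreated cells. Neomycin replicate 2 lay between the untreated arrays while replicates 1 and 3 lay above them, and the log2 fold change of 0.41 (SE 0.22, 95% interval −0.09 to 0.92, adjusted p = 0.471) came with the widest spread of the 10 genes, a pooled SD of 0.35 that is larger than or equal to that of 92.8% of all genes.

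*GPA1* (YHR005C), the alpha subunit that holds the dimer back until pheromone binds, had 10.63, 10.40 and 10.60 with neomycin and 10.55, 10.88 and 10.64 without. Its groups overlapped, with a log2 fold change of −0.15 (95% interval −0.44 to 0.14). *SST2* (YLR452C) encodes the RGS protein that returns Gpa1 to its inactive state and so desensitises the cell. It had 9.11, 9.34 and 8.99 on the neomycin arrays, against 9.60, 9.67 and 9.61 on the untreated arrays, which lay very close together (SD 0.04). The groups were separated and the log2 fold change was −0.48 (SE 0.12, 95% interval −0.75 to −0.21, adjusted p = 0.147), the lowest adjusted p of the 10 genes. The opposite values of *STE18* and *STE4* were noticed in these data and then compared within each array. The difference between their log2 changes was 0.775 (SE over arrays 0.32). The neomycin arrays lay at 1.19, 0.18 and 0.96 and the untreated arrays at −0.13, 0.16 and −0.03. An exact 2-sided permutation test gave p = 0.1, the smallest that 3 arrays against 3 can give. Its adjusted p was 0.15 over the 3 pairs of genes compared in this way. The pair was picked by these same values, so that neither p gives support to the difference.

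Along the scaffold and the kinases, the upper tiers showed small differences and the MAP kinase the largest. *STE5* (YDR103W), the scaffold that binds Ste11, Ste7 and Fus3, had 8.34, 8.45 and 8.42 with neomycin and 8.53, 8.32 and 8.65 without, and its log2 fold change was −0.09 (95% interval −0.36 to 0.17). *STE11* (YLR362W), the MAP kinase kinase kinase, had 7.69, 8.08 and 8.25 with neomycin and 7.95, 7.94 and 8.22 without (log2 fold change −0.03, 95% interval −0.40 to 0.34). *STE7* (YDL159W), the MAP kinase kinase that phosphorylates Fus3, had 7.60, 7.80 and 7.83 with neomycin and 7.65, 7.84 and 7.64 without (log2 fold change 0.04, 95% interval −0.22 to 0.30). In each of these genes the neomycin arrays were interspersed with the untreated ones, and each interval lay inside a change of 1 on the log2 scale in either direction. The sign of the *STE11* value turned when the arrays were rescaled, with 0.020 after quantile normalisation and 0.011 after centring of the arrays on their medians.

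*FUS3* (YBL016W), the MAP kinase that is specific to mating, had 9.23, 8.71 and 8.83 with neomycin, against 9.32, 9.69 and 9.70 in untreated cells. Every neomycin array lay below every untreated array, but neomycin replicate 1 and untreated replicate 1 were only 0.10 apart. The log2 fold change was −0.65 (SE 0.17, 95% interval −1.03 to −0.26, adjusted p = 0.180), the largest of the 10 genes and the 38th lowest of 5449. Without neomycin replicate 1 it was −0.80 (SE 0.15) and passed limma's test (adjusted p = 0.0348), the only call among the 10 genes under any setting tried. Over all genes, that setting called 119 higher and 23 lower, against 23 and 5 with all arrays. With the criteria of the methods, a ratio of at most 0.6 or at least 1.7 and a Bayesian p of at most 0.05 from a Cyber-T test, the ratio of *FUS3* missed the threshold, and 0 of the 10 genes met the criteria, where 0.367% of all genes were repressed and 1.45% induced.

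At the end of the pathway, both targets of Fus3 lay lower with neomycin. *STE12* (YHR084W), the transcription factor of the mating genes, had 9.34, 9.30 and 9.28 with neomycin, against 9.40, 9.72 and 9.47 without. The groups were separated, by 0.06 between neomycin replicate 1 and untreated replicate 1, and the log2 fold change of −0.22 (SE 0.11, 95% interval −0.49 to 0.04, adjusted p = 0.447) had an interval that includes 0. *FAR1* (YJL157C), which inhibits the G1 forms of the Cdk, had 10.34, 10.14 and 10.15 with neomycin, against 10.52, 10.83 and 10.63 without, a separation of 0.18. Its log2 fold change was −0.45 (SE 0.12, 95% interval −0.73 to −0.17, adjusted p = 0.188).

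**Figure D2:**
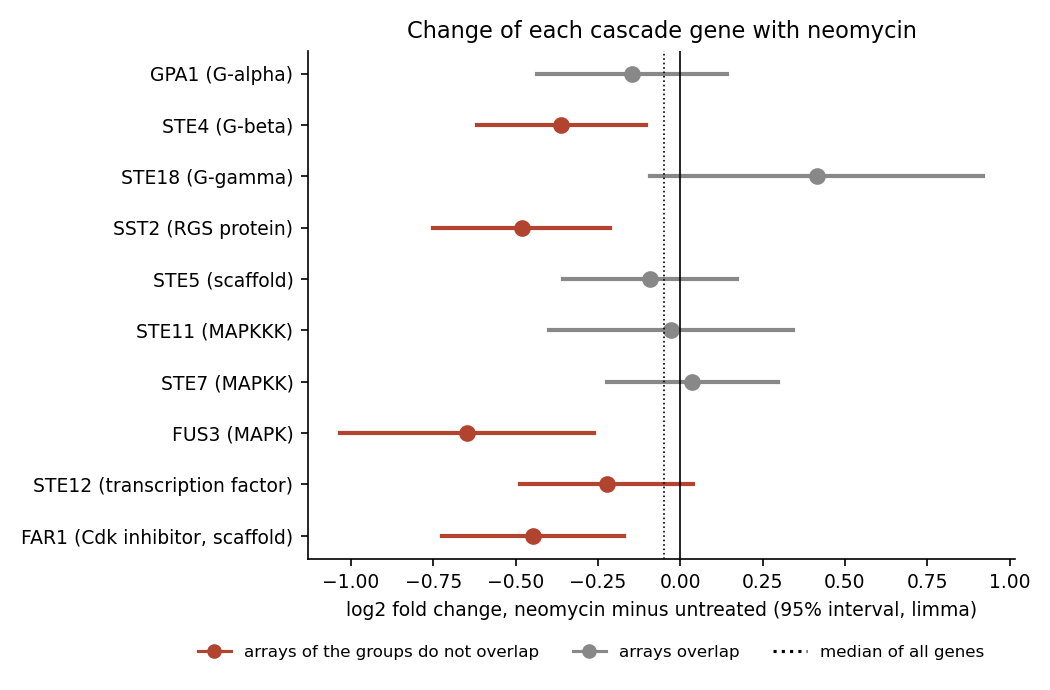
Log2 fold change (x axis, neomycin minus untreated) of the 10 cascade genes in pathway order, with the 95% interval from limma, n = 3 arrays per condition. The intervals of *STE4*, *SST2*, *FUS3* and *FAR1* exclude 0, that of *STE12* includes it although its arrays do not overlap (red), and the dotted line marks the median of all genes, −0.05.

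Limma's 95% interval excluded 0 for 4 of the 10 genes, and for 9 of the 10 it lay within a change of 1 on the log2 scale in either direction, the exception being *FUS3*. An exact 2-sided permutation test gave p = 0.1 for each of the 5 separated genes, the least possible with 3 arrays against 3. Separated arrays always give this value, so that it only restates the separation. *FUS3*, *SST2*, *FAR1* and *STE4* were lower with an unadjusted p under 0.05 in all 15 fits. These were the fits of all arrays, of each array left out and of the other settings. Limma's p-values ran from 7.66e-04 to 0.0198, from 9.32e-04 to 0.0146, from 0.00256 to 0.0224 and from 0.00563 to 0.0486. The fits reuse the same arrays and are not independent. Those that differ only in the use of probe sets leave the values of these genes unchanged.

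The 3 neomycin arrays did not show changes of the same size. Over all genes, neomycin replicate 1 correlated at 0.9874, 0.9931 and 0.9825 with untreated replicates 1, 2 and 3. It correlated at 0.9866 and 0.9884 with neomycin replicates 2 and 3. With a single array for each culture, the source of this difference was not tested. When the 100 most changed genes were picked from the other arrays, neomycin replicate 1 reached a median of 0.494 of the change seen there, while neomycin replicates 2 and 3, treated likewise, reached 0.968 and 1.13. Of the 5 separated genes, *FUS3*, *FAR1* and *STE12* had their highest neomycin value on replicate 1, and *STE4* and *SST2* on replicate 2. Relative to the untreated mean, *FUS3* stood at −0.34, −0.86 and −0.74 and *FAR1* at −0.32, −0.52 and −0.51 on neomycin replicates 1, 2 and 3, whereas *SST2* stood at −0.52, −0.29 and −0.63 and *STE4* at −0.35, −0.23 and −0.50. The smaller change on neomycin replicate 1 was visible in *FUS3* and *FAR1* but not in *SST2* or *STE4*. Without this array the same count of 5 of the 10 genes lay entirely below the untreated arrays, where 16.9% of all genes did so and 14.2% lay above, a setting that was added after seeing the data.

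The members whose own transcripts are known to be raised by pheromone are *GPA1*, *SST2*, *FUS3*, *STE12* and *FAR1*. All 5 had fold changes below 0, with a median of −0.45, and for 4 of them the neomycin arrays lay entirely below. The remaining genes, *STE4*, *STE18*, *STE5*, *STE11* and *STE7*, had a median of −0.03, with 3 below 0 and 1 entirely below. Of all genes, 62.1% had fold changes below 0 and 12.8% lay entirely below. On neomycin replicates 1, 2 and 3 the median of the pheromone-raised members lay at −0.32, −0.29 and −0.51 relative to the untreated mean, and that of the others at −0.16, −0.04 and 0.12. On the untreated arrays these medians ran from −0.14 to 0.17 and from −0.07 to 0.08. These groups were drawn with earlier results of these arrays known, and the difference between them was not tested.

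The levels of the 10 genes were well above background. Their lowest value on any array was 7.58, while the highest mean over the 6 arrays among the disrupted *LEU2*, *MET17* and *URA3* was 4.68. In an S288C annotation (R64, used for names only), 0 of their 20 adjacent genes overlap a member. Of the 17 adjacent genes that were measured, 0 passed limma's test (0.514% of all genes), 1 had an unadjusted p under 0.05 (13.4% of all genes), 0 met the ratio criteria and 2 had arrays that did not overlap (18.4% of all genes), *PEP1*, next to *FUS3*, with a log2 fold change of 0.18, and *RIF2*, next to *SST2*, with −0.35.

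Upstream of the G protein and between it and the cascade, 0 of 7 genes passed limma's adjusted test (0.514% of all genes) and 0 met the ratio criteria, with a median of −0.22. At an unadjusted p under 0.05, 2 were lower, *STE2* and *STE3* (8.33% of all genes), and 0 higher (5.05%). *STE2*, the receptor of a cells for alpha-factor, had 12.02, 12.15 and 12.13 with neomycin, against 12.35, 12.31 and 12.41 without. The groups were separated, with a log2 fold change of −0.26 (SE 0.10, adjusted p = 0.329). *STE20*, the kinase that activates Ste11, had a log2 fold change of −0.31 (SE 0.17), *CDC42*, the GTPase that binds Ste20, −0.22 (SE 0.12), and *STE50*, the adaptor of Ste11, −0.06 (SE 0.16), all with overlapping arrays. *STE3*, the receptor of alpha cells, had 5.05, 5.46 and 5.32 with neomycin and 5.34, 6.20 and 5.91 without, close to the background of 4.68.

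Cell type markers were checked against the labelled mating type a. In both conditions the summed signal of the a-cell markers lay above that of the alpha-cell markers, the order given by the label. All 7 a-cell markers (*STE2*, *STE6*, *MFA1*, *MFA2*, *AGA2*, *BAR1* and *ASG7*) had fold changes below 0, with a median of −0.44, and their summed linear signal was 16770 to 21148 with neomycin and 23981 to 28204 without. All 4 alpha-cell markers (*STE3*, *MF(ALPHA)1*, *MF(ALPHA)2* and *SAG1*) were below 0 as well, with a median of −0.51 and a summed signal of 285 to 351 with neomycin and 375 to 556 without. Of these, *MF(ALPHA)1* lay under the background mark of 4.68 on every array, and *STE3* and *MF(ALPHA)2* lay close to it. Fold changes below 0 were found for 62.1% of all genes. Of both lists 0 markers passed limma's adjusted test (0.514% of all genes). At an unadjusted p under 0.05, 5 of 7 a-cell markers and 4 of 4 alpha-cell markers, *MF(ALPHA)1* among them, had lower values (8.33% of all genes), and 2 and 0 were repressed by the ratio criteria (0.367% of all genes). The part of these shifts in the values of the cascade genes was not tested.

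Among 14 regulators that act on or beside the cascade, 0 passed limma's adjusted test (0.514% of all genes), with a median of −0.08. At an unadjusted p under 0.05, 2 were higher and 4 lower (5.05% and 8.33% of all genes), and by the ratio criteria 1 was induced and 1 repressed (1.45% and 0.367%). *ASG7*, an a-specific regulator of Ste4, had the largest value, with 9.15, 8.49 and 8.28 on the neomycin arrays, against 9.69, 9.90 and 9.92 on the untreated arrays (log2 fold change −1.20, SE 0.21, adjusted p = 0.0549). *PTP2*, a tyrosine phosphatase of MAP kinases, had 8.93, 9.50 and 9.49, against 8.44, 8.50 and 8.44 (0.85, SE 0.16, adjusted p = 0.0660). *KAR4*, a partner of Ste12 at karyogamy genes, had 8.90, 8.59 and 8.64, against 9.32, 9.27 and 9.48 (−0.65, SE 0.12, adjusted p = 0.0647). These 3 genes had separated arrays and missed the threshold, and without neomycin replicate 1 they passed (adjusted p = 0.00235, 0.00375 and 0.0234). That setting called 119 genes higher and 23 lower over all genes. None of the 3 genes passed with any other array left out or with a replicate block. All 3 passed without the dimmest 25% of genes and with an intensity trend, and *PTP2* also after quantile normalisation and after centring.

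*AFR1*, which promotes adaptation and the mating projection, had a log2 fold change of 0.55 (SE 0.14, adjusted p = 0.175). The repressors that hold Ste12 inactive gave −0.11 (SE 0.12) for *DIG1* and −0.01 (SE 0.21) for *DIG2*, and *MSG5*, a phosphatase of Fus3, gave 0.23 (SE 0.14), all with overlapping arrays. The value of *DIG2* was 0.025 after centring of the arrays on their medians, so that it has no settled sign.

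The genes that Ste12 switches on outside the cascade spanned a wider range of changes. Of 21 such genes 2 fell and 0 rose in limma's adjusted test (0.0918% of all genes fell and 0.422% rose). The 2 were *PRM6* and *PRM2*, which code for membrane proteins under pheromone control. Entirely below the untreated arrays were 13 genes and entirely above 4 (12.8% and 5.58% of all genes). By the ratio criteria 8 were repressed and 2 induced (0.367% and 1.45% of all genes). The induced genes were *PRM10* and *PRM5*, with log2 fold changes of 0.83 (SE 0.20) and 0.81 (SE 0.16). The paper describes *PRM5* as regulated by pheromone and also as induced in cell integrity signalling. The part of that route in its value was not tested. *PRM6* had 5.56, 4.33 and 4.10 with neomycin, against 7.38, 7.16 and 7.98 without, and *PRM2* had 4.70, 4.75 and 4.54, against 6.27, 6.50 and 7.19. The fitted log2 fold changes were −2.85 (SE 0.37, adjusted p = 0.0401) and −1.99 (SE 0.22, adjusted p = 0.0255), but 2 neomycin arrays of *PRM6* and 1 of *PRM2* lay under the background mark of 4.68. With these values raised to the mark, the differences were −2.53 and −1.94, which are bounds on the fall. *FIG1*, an integral membrane protein of mating cells, had 7.08, 4.80 and 5.12, against 8.23, 8.66 and 9.42 (−3.11, SE 0.57, adjusted p = 0.0631), and *PRM1*, which acts in cell fusion, 7.24, 6.03 and 6.50, against 8.11, 8.34 and 8.22 (−1.64, SE 0.27, adjusted p = 0.0507). The median was −0.19 for the 10 cascade genes and −0.44 for the Ste12 targets, and the values ran from −0.65 to 0.41 in the cascade and from −3.11 to 0.83 among these targets. *KAR4*, *ASG7*, *AFR1* and *BAR1* stand both here and in another list. When any array other than neomycin replicate 1 was left out, at most 1 gene of the lists beside the cascade was called. Without neomycin replicate 1 the calls in these lists were 9 lower and 2 higher (23 and 119 over all genes).

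**Figure D3:**
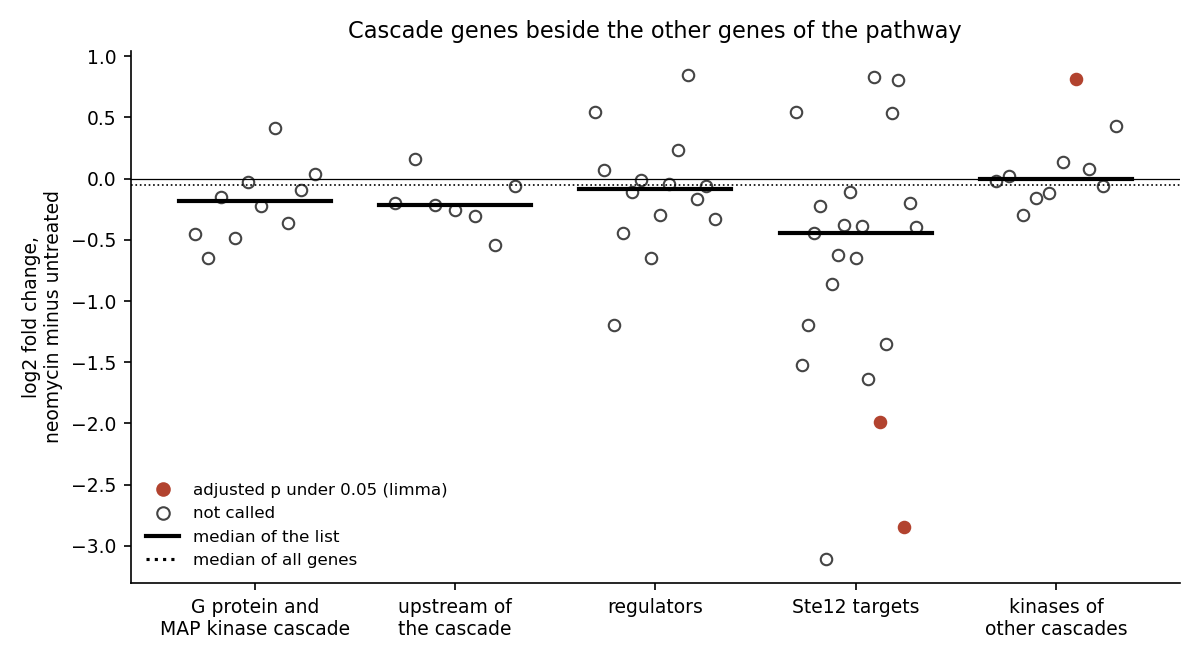
Log2 fold change (y axis, neomycin minus untreated) of each gene in the cascade and in the lists of upstream genes, regulators, Ste12 targets and kinases of other cascades. Filled points passed limma's adjusted test, thick lines are list medians and the dotted line is the median of all genes. The cascade genes lie between −0.65 and 0.41, and the Ste12 targets between −3.11 and 0.83.

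The MAP kinases of parallel cascades were set beside *FUS3*. *SLT2*, the MAP kinase of the cell wall integrity pathway, had 10.24, 10.43 and 10.60 with neomycin, against 9.70, 9.67 and 9.45 without, and it rose with a log2 fold change of 0.82 (SE 0.13, adjusted p = 0.0464, n = 3). It was the only one of 10 kinases of other cascades to pass (0.422% of all genes rose), and it did not pass when any array other than neomycin replicate 1 was left out. *KSS1*, the MAP kinase of filamentous growth that can also serve in mating, had 7.52, 7.43 and 7.21 with neomycin, against 7.71, 7.82 and 7.53 without. Its groups were separated by only 0.00443 (log2 fold change −0.30, SE 0.13, adjusted p = 0.366). *SSK22*, a MAP kinase kinase kinase of the osmotic stress route, had 0.43 (SE 0.17) and *MKK1*, a MAP kinase kinase of the cell wall route, −0.16 (SE 0.10), and neither passed. *HOG1*, the MAP kinase of osmotic stress, had 0.02 (SE 0.09).

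Compared within each array, the log2 change of *SLT2* exceeded that of *FUS3* by 1.47 (SE over arrays 0.30), with values of 0.98, 1.68 and 1.74 on the neomycin arrays and 0.34, −0.05 and −0.29 on the untreated arrays. The groups were separated, and an exact 2-sided permutation test gave p = 0.1. *SLT2* lay above and *FUS3* below their untreated values on every neomycin array. This outcome was therefore fixed in advance and adds nothing to the separation of each gene. For *KSS1* the difference from *FUS3* was 0.35 (SE over arrays 0.21), with 0.18, 0.60 and 0.27 on the neomycin arrays and 0.27, 0.02 and −0.29 on the untreated arrays. These overlapped, and the exact test gave p = 0.3. Over the 3 pairs compared in this way the adjusted p was 0.15 for *SLT2* and 0.3 for *KSS1*, and with 3 arrays against 3 the test cannot go below 0.1.

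**Figure D4:**
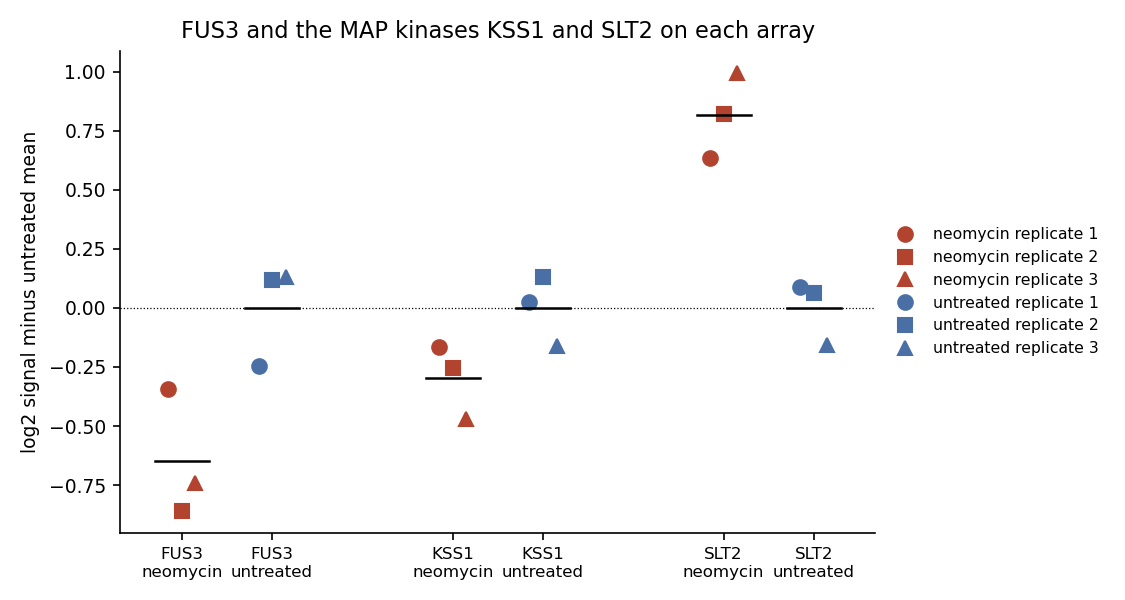
Log2 signal relative to the untreated mean (y axis) of *FUS3* and of the MAP kinases *KSS1* and *SLT2* on the neomycin arrays (red) and the untreated arrays (blue). Symbols mark the replicate number and lines the group means, which with neomycin lie at −0.65, −0.30 and 0.82.

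*FUS3*, the member with the largest difference, was compared with all other genes by the root mean square difference of the 6 values, each gene taken relative to its untreated mean. The nearest genes were *BAT2* at 0.105, *FUS1* at 0.124, *KAR4* at 0.132, *MF(ALPHA)2* at 0.155 and *COA2* at 0.168 log2 units. Of these, *MF(ALPHA)2* had 5.81, 5.17 and 5.49 with neomycin, against 5.75, 6.26 and 6.59 without. Its arrays overlapped and its values lay close to the background mark of 4.68. *FUS1*, a membrane protein of cell fusion, had 9.44, 8.75 and 8.83 with neomycin, against 9.47, 9.87 and 9.55 without, and so shared the high value of *FUS3* on neomycin replicate 1. Its log2 fold change was −0.62 (SE 0.20, adjusted p = 0.260). *BAT2*, the cytosolic branched-chain aminotransferase, had 11.36, 11.10 and 10.98, against 11.70, 11.87 and 11.93, with a log2 fold change of −0.69 (SE 0.13, adjusted p = 0.0647). These distances describe 6 arrays, and the genes nearest to a pattern were picked by it, so that no test applies.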

How the data were processed

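The deposited values are GCRMA signals on the log2 scale, which the authors made with Bioconductor from 6 Affymetrix Yeast Genome 2.0 arrays, and which are therefore already background-adjusted, normalised and summarised over probes. The sources used here give no version of GCRMA, and the labels give no batch. The values run from 2.22 to 14.31 over 5716 probe sets. The array's annotation names 1 gene for 5498 of these, 0 name several and 218 have none, and taking the probe set of highest mean for the 47 genes with several gave 5449 genes. Each cascade gene has a single probe set. With so few arrays, their number limits the precision.

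Neomycin was compared with untreated arrays over all genes by limma 3.58.1 under R 4.3.3 (lmFit, eBayes, 4.03 prior degrees of freedom, 2-sided, Benjamini-Hochberg over 5449 genes, call at an adjusted p under 0.05). The Cyber-T test was recomputed from the log2 signals (window 101, confidence 10, 22 degrees of freedom), with settings that the methods do not state. Alternatives were a replicate block, quantile normalisation, median centring, a filter on the dimmest 25% of genes, other uses of probe sets, an intensity trend, a robust prior, an adjusted p under 0.1, and each array left out in turn. Genes named are all members, their direct partners, the called genes and the 4 largest changes of each list and the 5 nearest to the leading member. The exceptions are *HOG1*, *PEP1*, *RIF2*, *PRM5* and *PRM10*, which were named after their values were seen. The members and lists were chosen with earlier results of these data known.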

Additional observations from a re-analysis of the deposited data

How the results depend on the processing

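Of the 10 cascade genes, 0 were called higher under any alternative and 0 lower except without neomycin replicate 1, so that leaving out each array gave 0 to 1 lower (the call is *FUS3*) and 0 higher. The median over the cascade genes ran from −0.25 to −0.16 with each array left out and from −0.22 to −0.15 otherwise. The number of genes called higher and lower over all genes, 23 and 5, was 0 and 0 with the replicate block, 50 and 5 after quantile normalisation, 44 and 7 after centring of the arrays on their medians, 40 and 7 without the dimmest 25% of genes (which also leaves out *STE7*), 48 and 14 with an intensity trend, 59 and 23 at an adjusted p under 0.1, 79 and 20 by the ratio criteria with Cyber-T, and 0 to 119 and 0 to 23 with each array left out. In the lists beside the cascade, where 1 gene was called higher and 2 lower, these counts were 0 and 0 with the replicate block, 2 and 2 after quantile normalisation and after centring, 3 and 3 without the dimmest genes, 3 and 7 with the trend and at an adjusted p under 0.1, 4 and 8 by the ratio criteria, and 0 to 2 and 0 to 9 with each array left out. The cause was not tested for these shifts, apart from the looser threshold. Values that turned sign were those of *STE11* (0.020 after quantile normalisation, 0.011 after centring, and −0.15 to 0.13 with each array left out), *STE7* (−0.0063 to 0.11), *STE50* (−0.22 to 0.073) and *DIG2* (0.025 after centring, −0.19 to 0.18), none of which passed the test. The labels tie same-numbered arrays by their number only. Their deviations from the group means correlated at −0.000302, −0.38 and 0.44 for replicates 1, 2 and 3 over 5449 genes. These values cannot settle whether such arrays shared a day or batch, which was not tested. The replicate block left 0 cascade genes called, with adjusted p-values from limma of 0.312 for *FUS3* and 0.244 for *SST2*.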
